A study of Danio rerio with 13 samples.

Results

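Among the livers of individual zebrafish (Danio rerio), a small set of genes was read strongly in some fish and almost not at all in others. A gene was taken as such an all-or-none gene when it had 2 counts or fewer in at least 3 livers and at least 5 CPM (the usual per-library unit, with the counts of each liver scaled to a sum of 1e+06) in at least 3 others. The rule was applied to 10 livers, those with less than 100 CPM of apoea, an apolipoprotein gene. It found 10 of 32105 genes, or 10 of the 8013 genes that reached 5 CPM in at least 3 of these livers (0.125%), so the limit of 150 genes in the rule was not reached. In what follows, a gene is called off in a liver at 2 counts or fewer, on at 5 CPM or more, and between otherwise. The members were chosen by these counts and CPM, and their levels in the 10 livers are therefore a description.

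The series holds RNA sequencing of livers of male fish of the AB strain at 3 months of age, each from a separate fish, in 3 tert-/-, 5 tert+/- and 5 tert+/+ (wild-type) fish. The mutants are of the hu3430 line, whose allele of tert, the gene of the reverse transcriptase subunit of telomerase, carries a premature stop codon in every cell of the fish. The series compares the genotypes to find what loss of telomerase changes in the organ. The 10 livers of the rule are 2 tert-/-, 4 tert+/- and 4 tert+/+ livers. The 3 livers left out are tert-/- liver 1, tert+/- liver 3 and tert+/+ liver 5, which held 11863, 11873 and 18930 CPM of apoea.

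Laboratory strains of zebrafish are not fully inbred, and fish of a strain are known to differ in single bases, in deleted segments and in the number of copies of a gene. Many zebrafish genes also exist as duplicates that descend from an ancient doubling of the genome of bony fish. The liver is made mostly of hepatocytes, which secrete plasma proteins and handle lipids and foreign compounds, beside bile duct, blood vessel and immune cells.

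Total counts were 17801374 to 37309651 in the 10 livers and 24091243 to 28590922 in the others, so that 3 counts, the limit that a count of 0 allows, stood for 0.0804 to 0.169 CPM, counting error only. The summed level of 8 hepatocyte markers was 51822 to 170114 CPM in the 10 livers, but 13033 to 23805 CPM in the 3 left out. Those 3 had 23225 to 35831 CPM of intestine markers, against 1069 to 2586 CPM in the 10, and in each of them the intestine markers were above the hepatocyte markers, against their tissue label. Heart muscle markers stood at 5099 CPM in tert+/- liver 5 and 5631 CPM in tert+/+ liver 1, against at most 32.3 CPM in the other livers. Mitochondrially encoded genes took 32.8% of the counts of tert-/- liver 2 and 54.7% of those of tert+/+ liver 4, but at most 14.4% in the other 8. The targeted gene tert was read at 4.09 and 4.22 CPM in tert-/- livers, at 2.33 to 3.54 CPM in tert+/- livers and at 0.515 to 2.47 CPM in tert+/+ livers among the 10. The transcript of the mutant allele can still be counted, so this does not check the genotype labels.

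The 10 genes did not share a pattern over fish. Each had its own combination of on, between and off, and none of the 10 combinations occurred more than once. Of the 100 values in the 10 livers, 50 were on, 36 were off and 14 were between, and 17 of the values that were off were exactly 0. No member was in any of 20 family lists matched by symbol, which covered the major histocompatibility complex, TRIM, NLR and immune GTPase families, cytochromes P450, solute carriers, proteases and histones among others, and none was in a list of cell type markers. These lists say little, since they hold 436 of the 8013 genes on in 3 or more livers (5.44%), and 5 of the 10 members have only a clone name or no symbol, which such lists cannot match.

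**Figure D1:**
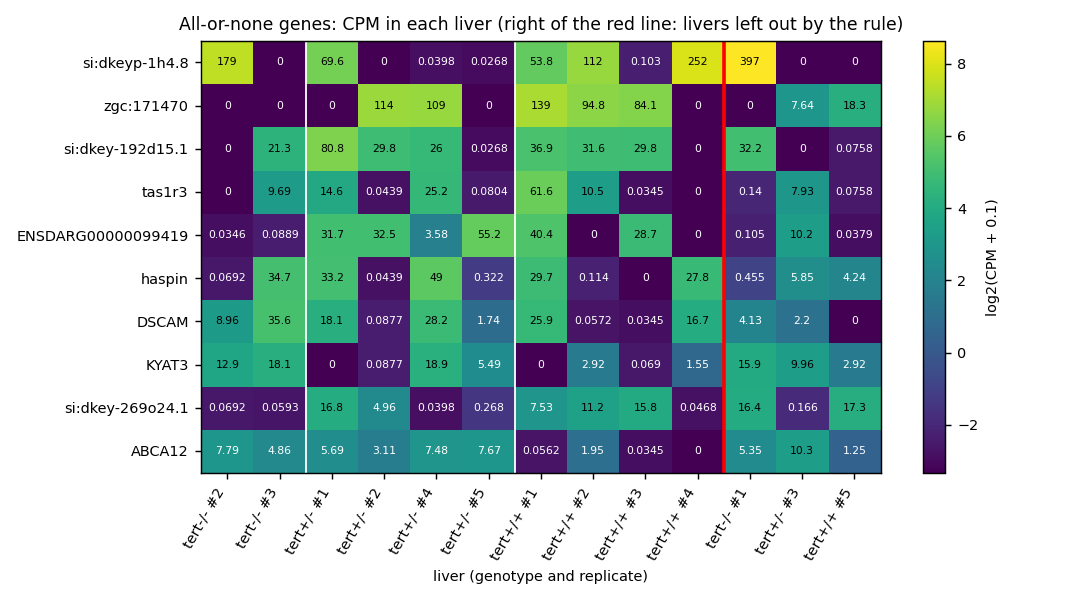
Level of the 10 genes (rows) in each of the 13 livers (columns, genotype and replicate). The number in a cell is the CPM and the colour is log2(CPM + 0.1). No 2 rows share a pattern over the 10 livers to the left of the red line, and the 3 livers to the right were left out by the rule.

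The label all-or-none held strictly for 2 of the 10 genes, which had no liver between off and on. Among the 14 values in between, 6 were under 1 CPM (at most 0.322 CPM) and 8 were over 1 CPM (1.55 to 4.96 CPM). By these, 5 genes had 2 separate levels in the 10 livers, namely zgc:171470, si:dkey-192d15.1, si:dkeyp-1h4.8, tas1r3 and haspin. Every value of these genes there was either at or under 0.322 CPM or at or over 9.69 CPM. The other 5, ENSDARG00000099419, DSCAM, KYAT3, si:dkey-269o24.1 and ABCA12, had at least 1 liver between 1 and 5 CPM and are better described as graded. In bulk tissue, fewer cells of a type and less RNA per cell cannot be told apart, so a low value is a low level of the organ and not of each cell.

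The gene zgc:171470 (ENSDARG00000057844) was the clearest case. It had 0 and 0 CPM in tert-/- livers 2 and 3. In tert+/- livers 1, 2, 4 and 5 it had 0, 114, 109 and 0 CPM. In tert+/+ livers 1 to 4 it had 139, 94.8, 84.1 and 0 CPM. All 5 livers that were off had exactly 0 counts, and the 5 that were on lay within a 1.65-fold range, with at least 2437 counts each. No liver lay anywhere in between, and both states occurred among the tert+/- and among the tert+/+ fish.

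The second gene with no value in between was si:dkey-192d15.1 (ENSDARG00000094779), which was on in 7 of the 10 livers. Its level was 0 and 21.3 CPM in tert-/- livers 2 and 3. It was 80.8, 29.8, 25.97 and 0.0268 CPM in tert+/- livers 1, 2, 4 and 5, the last being a single count. It was 36.9, 31.6, 29.8 and 0 CPM in tert+/+ livers 1 to 4. Each genotype thus held 1 liver in which the gene was off, and the genotypes overlapped. The off livers included those with the highest mitochondrial shares, tert-/- liver 2 (32.8%) and tert+/+ liver 4 (54.7%). The remaining one, tert+/- liver 5, had 5099 CPM of heart muscle markers, but tert+/+ liver 1, with 5631 CPM, was on. The part of these shares and markers was not tested.

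The gene with the highest level of the set, si:dkeyp-1h4.8 (ENSDARG00000092833), was on in 5 livers, 1 in each mutant group and 3 in wild type. It had 179 and 0 CPM in tert-/- livers 2 and 3, and 69.6, 0, 0.0398 and 0.0268 CPM in tert+/- livers 1, 2, 4 and 5. In tert+/+ livers 1 to 4 it had 53.8, 112, 0.103 and 252 CPM. Its 2 highest values fell in the 2 livers with the highest mitochondrial shares, whose part in the result was not tested, and tert+/+ liver 2, with a share of 8.07%, had 112 CPM.

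The gene tas1r3 (ENSDARG00000006341) encodes a subunit of the G protein-coupled receptors that in mammals taste umami and sweet compounds. It had 0 and 9.69 CPM in tert-/- livers 2 and 3, and 14.6, 0.0439, 25.2 and 0.0804 CPM in tert+/- livers 1, 2, 4 and 5. In tert+/+ livers 1 to 4 it had 61.6, 10.5, 0.0345 and 0 CPM. The on state was therefore present in 1 of 2 tert-/-, 2 of 4 tert+/- and 2 of 4 tert+/+ livers. Its partners in the receptor, tas1r1, tas1r2.1 and tas1r2.2, were at most at 0.199 CPM in any of the 10 livers, on or off.

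The gene haspin (ENSDARG00000092290) encodes a kinase that phosphorylates a histone during mitosis. It had 0.0692 and 34.7 CPM in tert-/- livers 2 and 3. In tert+/- livers 1, 2, 4 and 5 it had 33.2, 0.0439, 49.0 and 0.322 CPM, and in tert+/+ livers 1 to 4 it had 29.7, 0.114, 0 and 27.8 CPM. The 5 livers that were on lay within a 1.76-fold range and came from all 3 genotypes.

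DSCAM (ENSDARG00000024865), an adhesion molecule of the immunoglobulin superfamily known from neurons, was on in the same 5 livers as haspin and in tert-/- liver 2. Its levels were 8.96 and 35.6 CPM in tert-/- livers 2 and 3, and 18.1, 0.0877, 28.2 and 1.74 CPM in tert+/- livers 1, 2, 4 and 5. They were 25.9, 0.0572, 0.0345 and 16.7 CPM in tert+/+ livers 1 to 4. The 2 other genes of this family in the table, a second gene under the symbol DSCAM (ENSDARG00000028118) and DSCAML1, stayed at or under 0.235 CPM.

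KYAT3 (ENSDARG00000101791), an aminotransferase that makes kynurenic acid from kynurenine, was on in both tert-/- livers and in no tert+/+ liver. It had 12.9 and 18.1 CPM in tert-/- livers 2 and 3, and 0, 0.0877, 18.9 and 5.49 CPM in tert+/- livers 1, 2, 4 and 5. In tert+/+ livers 1 to 4 it had 0, 2.92, 0.0690 and 1.55 CPM, all below both tert-/- livers. The rule chose KYAT3 by these values, and 618 of 16219 genes (3.81%) separated tert-/- from tert+/+ without overlap. The related KYAT1, an enzyme of the same reaction, was read in every one of the 10 livers, at 8.99 to 25.3 CPM. The 3 other genes named as copies of KYAT3 (ENSDARG00000100818, ENSDARG00000102423 and kyat3.3) were at or under 0.0804 CPM. Counts of such close copies may be split by the counting.

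ABCA12 (ENSDARG00000074749), a lipid transporter known from human skin, was the lowest of the set. It had 7.79 and 4.86 CPM in tert-/- livers 2 and 3. In tert+/- livers 1, 2, 4 and 5 it had 5.69, 3.11, 7.48 and 7.67 CPM, and in tert+/+ livers 1 to 4 it had 0.0562, 1.95, 0.0345 and 0 CPM. Every tert-/- and tert+/- liver was above every tert+/+ liver, and the tert-/- and tert+/- livers overlapped. The 3 off livers through which ABCA12 met the rule were all tert+/+, so this split is a description. Of 16219 genes, 618 (3.81%) separated tert-/- from tert+/+ without overlap, and 250 (1.54%) separated tert+/- from tert+/+.

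The gene ENSDARG00000099419, which has no symbol in the annotation used, was low in both tert-/- livers. It had 0.0346 and 0.0889 CPM in tert-/- livers 2 and 3, and 31.7, 32.5, 3.58 and 55.2 CPM in tert+/- livers 1, 2, 4 and 5. In tert+/+ livers 1 to 4 it had 40.4, 0, 28.7 and 0 CPM. The tert-/- livers lay below every tert+/- liver and below the 2 high tert+/+ livers. With 1 and 3 counts, they could not be told from the 2 tert+/+ livers at 0 counts. The rule chose this gene by these values, and 1379 of 16219 genes (8.5%) separated tert-/- from tert+/- without overlap.

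The gene si:dkey-269o24.1 (ENSDARG00000100865) was also off in both tert-/- livers, at 0.0692 and 0.0593 CPM. It had 16.8, 4.96, 0.0398 and 0.268 CPM in tert+/- livers 1, 2, 4 and 5, and 7.53, 11.2, 15.8 and 0.0468 CPM in tert+/+ livers 1 to 4. Tert+/- liver 4 and tert+/+ liver 4 were as low as the tert-/- livers, so that the genotypes overlapped.

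**Figure D2:**
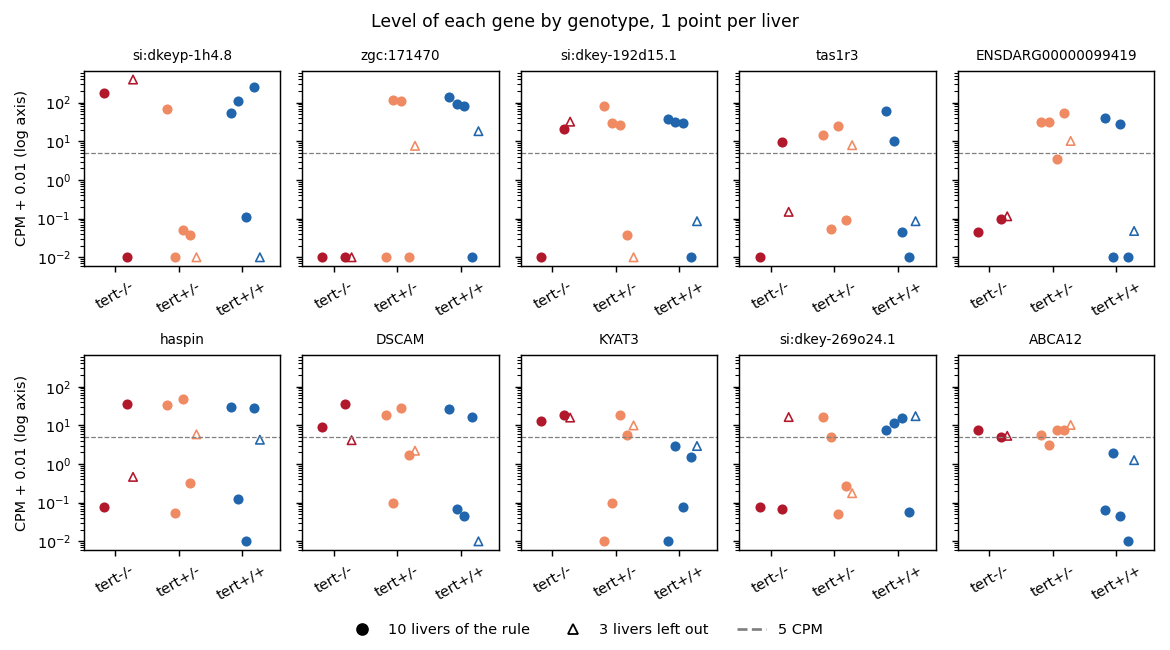
CPM + 0.01 on a log axis for each gene (panels) in tert-/-, tert+/- and tert+/+ livers, 1 point per liver. Filled circles are the 10 livers of the rule, open triangles the 3 livers left out, and the dashed line marks 5 CPM. In tert+/- livers every gene had points both above and below the line, while ABCA12 and KYAT3 stayed below it in all tert+/+ livers.

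Individual fish differed within a genotype. All 10 genes were on in some tert+/- livers and not in others, 8 of 10 did so within tert+/+ and 5 of 10 within tert-/-, where 2 livers entered. For 4 genes, si:dkeyp-1h4.8, si:dkey-192d15.1, tas1r3 and haspin, this held within every genotype. Livers not on include those between, such as ABCA12 at 4.86 CPM in tert-/- liver 3, against 7.79 CPM in tert-/- liver 2. In tert+/- livers ABCA12 was never off, at 3.11 to 7.67 CPM. The rule asked for at least 3 livers off and 3 on, which favours mixed states within groups of 2, 4 and 4 livers. These counts are therefore a description. The number of genes that were on in a liver was 4 and 5 in tert-/- livers 2 and 3. It was 8, 3, 7 and 3 in tert+/- livers 1, 2, 4 and 5, and 8, 5, 4 and 3 in tert+/+ livers 1 to 4, so the genotypes overlapped here too. The most genes off, 6 each, were counted in tert-/- liver 2 and tert+/+ liver 4, which had the highest mitochondrial shares, and tert+/+ liver 4 also had the fewest genes at 5 CPM or more, 4960 against 6192 to 8506 in the others. The 2 livers with heart muscle markers had 3 genes on in tert+/- liver 5 and 8 in tert+/+ liver 1. The part of these markers and shares in the counts was not tested.

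**Figure D3:**
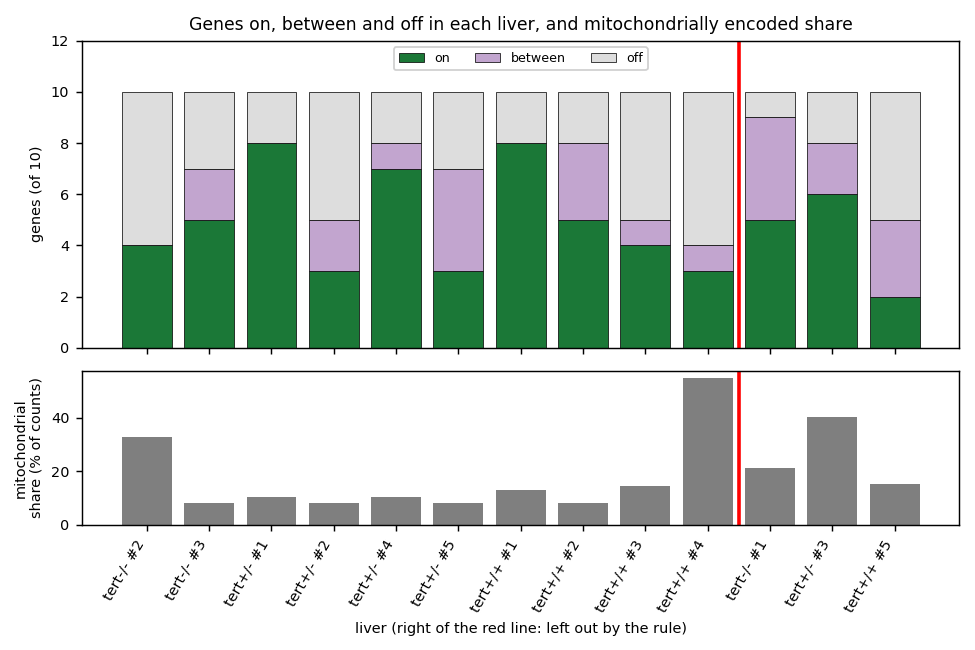
Number of the 10 genes that were on (5 CPM or more), between or off (2 counts or fewer) in each liver (upper panel), and the share of counts from mitochondrially encoded genes in percent (lower panel). Tert-/- liver 2 and tert+/+ liver 4 had 6 genes off each and mitochondrial shares of 32.8% and 54.7%, and the 3 livers right of the red line were left out by the rule.

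Whether 2 genes were on or off together was counted over the livers in which neither was between. Across the 45 pairs the share of livers with the same state had a median of 55.6% and ran from 0% to 87.5%, and no pair had the same state in every such liver. The most alike were haspin and DSCAM, and haspin and tas1r3, each with the same state in 7 of 8 livers. The genes zgc:171470 and si:dkey-192d15.1, both with no value in between, had the same state in 8 of 10 livers, but opposite states in all 3 livers left out. KYAT3 and ABCA12 were alike in 5 of 6 livers and in the 2 left-out livers in which both were clear. ENSDARG00000099419 and si:dkey-269o24.1 were also alike in 5 of 6 livers, but not in the 1 left-out liver in which both were clear. For haspin and tas1r3 that single left-out liver had them alike, and haspin and DSCAM had none. At the other end, KYAT3 and si:dkey-269o24.1 were in opposite states in 6 of 6 livers, while in the livers left out the only liver with both states clear had them alike. These counts share their 10 livers and carry no test.

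**Figure D4:**
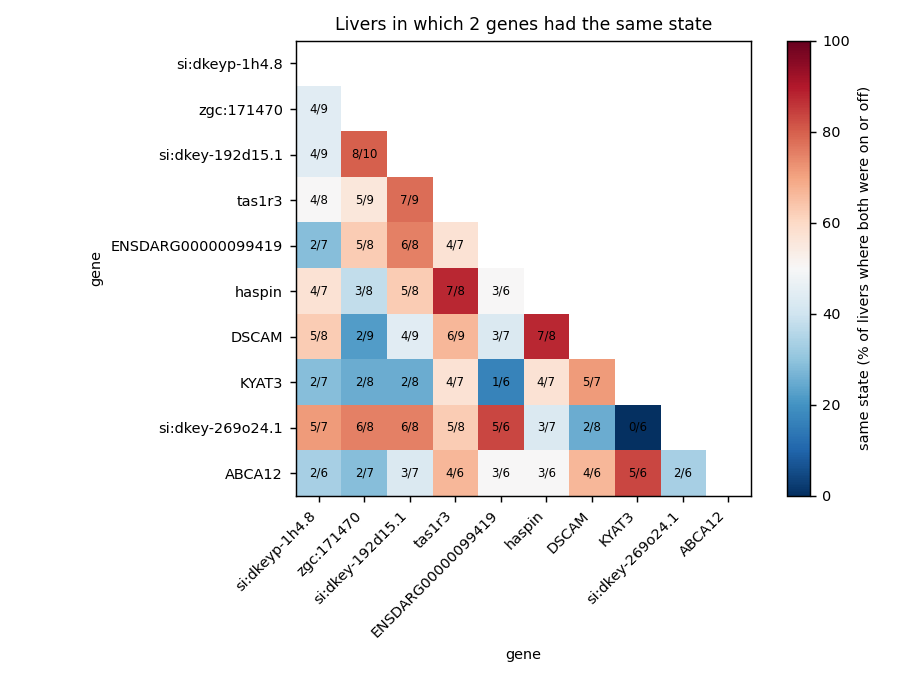
For each pair of the 10 genes, the number of livers with the same state over the number in which both were on or off (text) and that share in percent (colour). Haspin with DSCAM and with tas1r3 reached 7 of 8, and KYAT3 with si:dkey-269o24.1 stood at 0 of 6.

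The 3 livers left out gave values that the rule had not used. Of these 30 values 13 were on, 8 off and 9 between. Of the 10 genes, 6 were off in at least 1 of the 3 livers, against 23 of the 8013 genes on in 3 or more of the 10 livers (0.287%, these 6 included). Both states occurred among the 3 livers for 5 genes, against 12 of the 8013 (0.15%). In tert-/- liver 1, tert+/- liver 3 and tert+/+ liver 5, si:dkeyp-1h4.8 had 397, 0 and 0 CPM. Likewise si:dkey-192d15.1 had 32.2, 0 and 0.0758 CPM there. The gene zgc:171470 had 0, 7.64 and 18.3 CPM, well under the 84.1 to 139 CPM of the 10 livers where it was on. This gene was known from these data to differ between genotypes, so its value in tert-/- liver 1 is a description too. It was also at 0 counts in tert+/- livers 1 and 5 and in tert+/+ liver 4. In all 3 tert-/- livers of the series it was at exactly 0 counts. By contrast, si:dkey-269o24.1, which was off in both tert-/- livers of the rule, had 16.4 CPM in tert-/- liver 1, with 0.166 CPM in tert+/- liver 3 and 17.3 CPM in tert+/+ liver 5. Sums over the kidney marker list (2 genes found) were 571 to 1003 CPM in the 3 left-out livers, against at most 14.8 CPM in the 10. Over the skin marker list (4 genes) they were 2179 to 2804 CPM, against at most 155 CPM. These are the livers with the intestine markers given above. Which genes made up the sums was not examined, so the presence of kidney or skin tissue is not read from them. Exocrine pancreas markers stood at 4211 CPM in tert-/- liver 1, the liver with 397 CPM of si:dkeyp-1h4.8, against at most 273.4 CPM in the 10. The part of these markers in the levels was not tested.

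Genes with related names were compared with the members, chosen after the members' values were seen. Of 17 genes of the same families (taste receptor, DSCAM, kynurenine aminotransferase and ABCA genes), none was wholly higher or lower in the livers where its relative was on. However, 10 of the 17 stayed under 1 CPM in those livers, where little separation could be seen. The same held for 4 of 7 genes named after the same genomic clone as a member. Of these 7 genes, 2 were wholly higher where the member was on. The first, si:dkey-192d15.2, had 0 counts in the 3 of 10 livers in which si:dkey-192d15.1 was off, and also in tert+/- liver 3 and tert+/+ liver 5. In the 8 livers of the series with si:dkey-192d15.1 on, it had 0.889 to 3.67 CPM, which was 3.52% to 5.97% of the counts of si:dkey-192d15.1 (median 4.40%). Among the 10 livers, 300 of 16301 other genes with at least 10 counts in 2 livers (1.84%) were likewise higher in every liver where si:dkey-192d15.1 was on. Whether the 2 genes overlap or share reads was not tested.

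The second, si:dkeyp-1h4.9, had 17.0 to 70.7 CPM in the 5 livers where si:dkeyp-1h4.8 was on and 4.03 to 13.2 CPM in the other 5, a graded difference where its namesake's was almost complete. Such a separation held for 41 of 16301 genes (0.252%). In the livers left out the 2 genes parted, since si:dkeyp-1h4.9 had 1470, 568 and 612 CPM in tert-/- liver 1, tert+/- liver 3 and tert+/+ liver 5, where si:dkeyp-1h4.8 was on in the first only.

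Among the members that could be placed in an annotation, no 2 were found next to each other, and the other members were not placed. In the RefSeq annotation of GRCz12tu, used only for the order of genes, 4 members were found under a symbol that stands for a single gene, zgc:171470, tas1r3, haspin and ABCA12. They were compared with 16 genes, on each side of each the 2 nearest whose name stood for a single gene in the counts. Genes without such a name were passed over and may lie closer. Of the 16, 7 stayed under 1 CPM in the livers where the member was on, where little separation could be seen, and 1 was set apart. FAM184B, near haspin, had 0.937 to 2.47 CPM in the 5 livers where haspin was on and 0.208 to 0.429 CPM in the other 5. Of 16301 genes, 21 (0.129%) separated these livers in the same direction. In the livers left out FAM184B had 1.33, 0.706 and 1.70 CPM while haspin had 0.455, 5.85 and 4.24 CPM in tert-/- liver 1, tert+/- liver 3 and tert+/+ liver 5, so that the liver lowest in haspin was not the lowest in FAM184B.

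**Figure D5:**
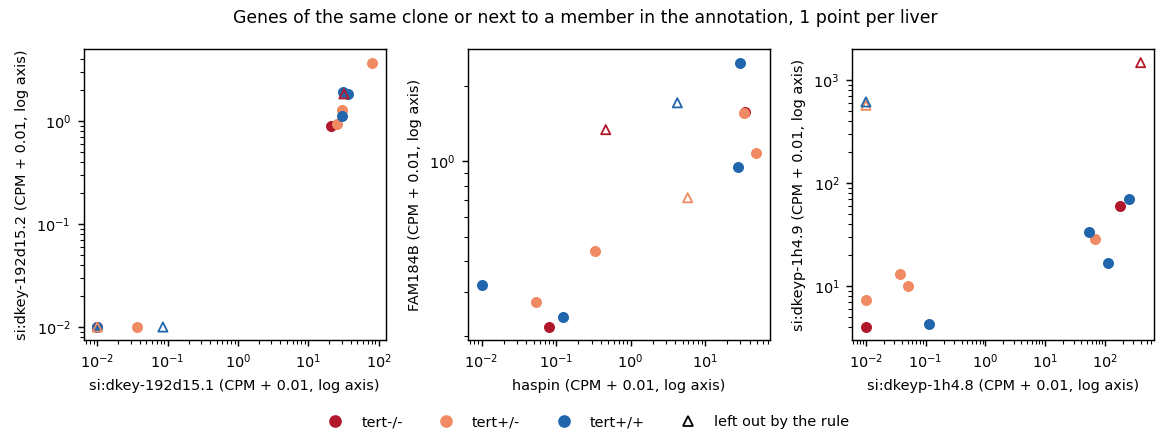
CPM + 0.01 on log axes of 3 members (horizontal) and of a gene of the same clone or near it in the annotation (vertical), 1 point per liver, coloured by genotype, with open triangles for the livers left out. The gene si:dkey-192d15.2 was at 0 in every liver without si:dkey-192d15.1, whereas FAM184B followed haspin in the 10 livers but not in those left out. The gene si:dkeyp-1h4.9 was higher where si:dkeyp-1h4.8 was on in the 10 livers. In those left out its level was raised throughout, also in the 2 livers where si:dkeyp-1h4.8 was off.

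The comparison of genotypes asks whether the all-or-none states went with tert. Genotype was not part of the rule, but the values compared in the 10 livers are those that chose the members. ABCA12 entered with all 3 of its off livers in tert+/+ and all 4 of its on livers in the mutant groups. KYAT3 was on only in mutant livers, but off in 2 tert+/- and 2 tert+/+ livers. The rule did not force such splits, but the values that chose these members already held them. The p-values and counts of members in the 10 livers are therefore given as a description, and nothing is read from them against the share over all genes. None of the 10 genes passed an adjusted p of 0.05 (edgeR quasi-likelihood test with Benjamini-Hochberg adjustment) in any of the 3 comparisons. Neither did any of the 16219 genes tested (0% called). At an unadjusted p under 0.05, the members numbered 4 for tert-/- against tert+/+, against 328 of all genes (2.02%), 1 for tert+/- against tert+/+, against 383 (2.36%), and 3 for tert-/- against tert+/-, against 305 (1.88%). The last comparison shares its livers with the first 2. The median log2 fold change of the members was -0.82, -0.15 and -0.65 in the 3 comparisons, against -0.04, -0.06 and -0.01 over all genes tested. These medians depended on single livers. For tert-/- against tert+/+ the median was -7.06 without tert-/- liver 3. For tert+/- against tert+/+ it was above 0 without tert+/- liver 2 (0.26), tert+/- liver 5 (0.23), tert+/+ liver 1 (0.42) or tert+/+ liver 4 (0.31), and for tert-/- against tert+/- it was 0.26 without tert+/- liver 4 and -6.73 without tert-/- liver 3. The 4 members with an unadjusted p under 0.05 for tert-/- against tert+/+ became 0 without tert-/- liver 2 and 1 without tert-/- liver 3, where a single tert-/- liver was left and was taken to vary like the other groups. The 3 members for tert-/- against tert+/- became 0 without either tert-/- liver and 1 without tert+/- liver 2 or tert+/+ liver 2.

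For tert-/- against tert+/+ the 3 smallest p-values were those of ABCA12, ENSDARG00000099419 and si:dkey-269o24.1, none past adjustment. ABCA12 was higher in tert-/- livers by 3.85 on the log2 scale (SE 1.19, unadjusted p = 0.00882 and adjusted p = 0.9998 by edgeR). ENSDARG00000099419 had a log2 fold change of -7.77 (SE 3.01, unadjusted p = 0.0273 by edgeR). For si:dkey-269o24.1 it was -6.77 (SE 2.67, unadjusted p = 0.0292 by edgeR), but -1.37 over all 13 livers (unadjusted p = 0.487 by edgeR), where tert-/- liver 1 was on. The gene zgc:171470 averaged 0 CPM in the 2 tert-/- livers, 55.8 ± 64.5 CPM in tert+/- livers and 79.4 ± 58.0 CPM in tert+/+ livers (SD, n = 4 each). Against a limit of 3 counts over both tert-/- livers, the tert-/- mean was at least 1165-fold lower than that of tert+/- and at least 1658-fold lower than that of tert+/+. Its unadjusted p was 0.0380 against tert+/+ and 0.0410 against tert+/- by edgeR, and with 2 tert+/- livers and 1 tert+/+ liver also at 0 the genotypes overlapped. By DESeq2 it was called in both comparisons (adjusted p = 3.13e-05 and 4.74e-05), and it was the only member called by that tool in the 10 livers. This gene was the example named with the rule and was known from these data to differ between genotypes. Its call is therefore a description.

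For tert+/- against tert+/+ ABCA12 had a log2 fold change of 3.39 (SE 1.08, unadjusted p = 0.0105 by edgeR). The next members, si:dkeyp-1h4.8 at -3.30 and KYAT3 at 1.95, had unadjusted p-values of 0.252 and 0.267 by edgeR. Leaving out each liver moved si:dkeyp-1h4.8 between -12.66 (without tert+/- liver 1, unadjusted p = 0.00807) and -1.53 (without tert+/+ liver 4), and KYAT3 between 0.070 (without tert+/- liver 4) and 2.59 (without tert+/+ liver 4). For tert-/- against tert+/- the 3 smallest were ENSDARG00000099419 at -8.57 (SE 3.09, unadjusted p = 0.0196 by edgeR), si:dkey-269o24.1 at -6.16 (SE 2.61; -0.35 over all 13 livers, unadjusted p = 0.852) and zgc:171470, whose fitted fold is not given because its tert-/- livers were at 0. The test of ABCA12 depended on tert+/+ liver 2. Without that liver, ABCA12 was the only gene of all those tested that edgeR called, at a log2 fold change of 7.60 (adjusted p = 0.0170) for tert-/- against tert+/+ and of 7.19 (adjusted p = 0.0188) for tert+/- against tert+/+. The tert+/+ livers then left were the 3 off livers through which ABCA12 had entered. The rule thus favoured this call, and nothing is read from it.

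By non-overlap of the groups in the 10 livers, 2 members (ABCA12 and KYAT3) separated tert-/- from tert+/+, as did 618 of 16219 genes (3.81%). ABCA12 alone among the members separated tert+/- from tert+/+, as did 250 genes (1.54%), and ENSDARG00000099419 alone separated tert-/- from tert+/-, as did 1379 genes (8.5%). For these 3 members the left-out livers fell on the same sides. This was unlike si:dkey-269o24.1, which was off in both tert-/- livers of the rule and on in tert-/- liver 1. The left-out livers, a single one per genotype, had intestine markers above hepatocyte markers. How many of the 618, 250 and 1379 genes did the same was not counted, so nothing is read from this. ABCA12 had 5.35 CPM in tert-/- liver 1 and 10.3 CPM in tert+/- liver 3, against 1.25 CPM in tert+/+ liver 5. KYAT3 had 15.9 CPM in tert-/- liver 1 and 2.92 CPM in tert+/+ liver 5, and ENSDARG00000099419 had 0.105 CPM in tert-/- liver 1 and 10.2 CPM in tert+/- liver 3. Over all 13 livers, the same 2, 1 and 1 members were thus without overlap, against 71 (0.402%), 19 (0.108%) and 97 (0.55%) of 17641 genes with at least 10 counts in 2 livers. Since 10 of these 13 livers chose the members, nothing is read from the members' counts against these shares either. The adjusted p-values by edgeR over all 13 livers were again near 1, at 0.99998 for ABCA12 in tert-/- against tert+/+.

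The members just inside the limit of 5 CPM in 3 livers were ABCA12, with a third-highest value of 7.48 CPM, and si:dkey-269o24.1, with 11.2 CPM. Just outside lay si:dkey-58f10.6, at 4.43 CPM, and ENSDARG00000101473, at 4.21 CPM. On the side of the count limit, si:dkey-238k10.5 and RETSAT, a retinol saturase, were left out with a third-lowest count of 3 and 4, and were named after their values were seen. The number of genes fell sharply with the number of livers asked to be on. With 3 or more livers off, 178 genes were on in at least 1 liver, 118 in at least 2 and 10 in at least 3, of which 7 were on in at least 5. Heart muscle markers were high in 2 of the livers, tert+/- liver 5 and tert+/+ liver 1. Their part in this fall was not tested.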

How the data were processed

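The authors deposited a table of raw counts per gene for the 13 livers, which was used as deposited. GRCz10 is the genome build in the notes of the submitters, which list featureCounts 1.4.6-p4, bcl2fastq 1.8.4 and STAR 2.4.1d among the tools. Strand setting and treatment of reads shared by genes are not given in the sources used here, so close paralogs, overlapping genes and antisense genes are uncertain. The authors also deposited an RPKM table, which was not used. Genotypes came from the labels, and replicates were numbered in accession order. No 2 livers agreed within sampling noise (lowest chi-square per degree of freedom over 78 pairs, 96.1). p-values measure the spread between single fish.

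Counts of the 10 livers were fitted in R 4.3.3 with edgeR 4.0.16 (filterByExpr, TMM, quasi-likelihood test, 1 coefficient per genotype, common dispersion 0.346), with Benjamini-Hochberg adjustment over 16219 genes at 0.05. The study's methods name DESeq2, which was run as an alternative (version 1.42.0), beside other scaling, no filter, all 13 livers and leaving out each liver. The steps were run on simulated counts with less spread between livers than was estimated here. That run checks the code and does not show what the test can find at the spread of these data. Values per liver were computed in Python 3.11.15 with pandas 2.3.3. Symbols were found for 26269 of 32105 genes, some of them those of the matching human gene. Named genes are zgc:171470, the 5 members with the highest level, the 3 with the smallest p in each comparison, members sharing a family, pattern or place, and the genes at the threshold. With 10 members, all are given. The members and lists were chosen with earlier results of these data known.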

Additional observations from a re-analysis of the deposited data

Results flagged for a closer look

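Within a genotype, a single liver stood far from the other 3 for 3 of the 20 combinations of gene and genotype looked at (tert+/- and tert+/+ in the 10 livers). The genes were chosen for such splits in these livers, so the rate of about 1 in 20 that chance gives does not apply to them. The gene si:dkeyp-1h4.8 had 69.6 CPM in tert+/- liver 1 and at most 0.0398 CPM in the other tert+/- livers. The gene tas1r3 had 61.6 CPM in tert+/+ liver 1, against at most 10.5 CPM in the other tert+/+ livers. ABCA12 had 1.95 CPM in tert+/+ liver 2 and at most 0.0562 CPM in the other tert+/+ livers.

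In livers that the rule left out, 3 members stood above all of the 10 livers. The gene si:dkeyp-1h4.8 reached 397 CPM in tert-/- liver 1, against at most 252 CPM in the 10 livers. The gene si:dkey-269o24.1 had 17.3 CPM in tert+/+ liver 5, against at most 16.8 CPM. ABCA12 had 10.3 CPM in tert+/- liver 3, against at most 7.79 CPM. These 3 livers also carried intestine markers at 23225 to 35831 CPM, whose part in these levels was not tested.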

How the results depend on the processing

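The choice of members rested on its thresholds. With 0 counts as off, 1 gene was left (zgc:171470), so 1 had no liver between and 2 values of the left-out livers were on. At 10 CPM as on, 9 members remained, and 7 values of the left-out livers were on. With TMM library sizes, or totals without mitochondrial genes, there were 11 members, the new one being ENSDARG00000101473. Over all 13 livers the limit of 150 genes was reached, with 7 of the 10 members among them. Leaving out each liver in turn gave 7 to 10 members, all of them among the 10, of which 1 to 3 had no liver between. That number was 1 without tert-/- liver 2 or without tert+/+ liver 4, since si:dkey-192d15.1 then had too few livers off. No 2 members shared a pattern under these settings over the 10 livers or 9 of them. Among the tests, edgeR with RLE scaling, without the filter and over all 13 livers called 0 genes in every comparison. DESeq2 in the 10 livers called 6 genes for tert-/- against tert+/+ (1 member), 13 for tert+/- against tert+/+ (0 members) and 4 for tert-/- against tert+/- (1 member). DESeq2 over all 13 livers, added after seeing the data, called 3 (1 member), 0 and 2 genes (2 members, zgc:171470 and ENSDARG00000099419, the second at adjusted p = 0.0237). Leaving out each liver gave 0 to 1 calls by edgeR in the 2 comparisons against tert+/+, the call being ABCA12 without tert+/+ liver 2, and 0 for tert-/- against tert+/-. For tert+/- against tert+/+ the log2 fold change of zgc:171470, -0.33, ran from -1.06 to 0.10 when each liver was left out, and was above 0 without tert+/- liver 1 (0.10), without tert+/- liver 5 (0.097) and without tert+/+ liver 1 (0.0087). The cause of the differences between tools was not tested. No paired analysis was possible because each liver came from a separate fish and the labels pair no fish across genotypes. A count of 0 limits a level to 0.0804 to 0.169 CPM. The size of difference that could pass with 2 tert-/- livers was not measured. Even zgc:171470, with a tert-/- mean at least 1658-fold lower than that of tert+/+, did not pass by edgeR.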
